A study of Drosophila melanogaster with 2 samples.

Results

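The genes described here are the 52 protein-coding genes of Drosophila melanogaster whose symbol starts with eIF or eEF, the eukaryotic translation initiation and elongation factors, out of 13945 protein-coding genes on the main chromosome arms. The rule for membership uses the symbol and no measured value, although the family was picked for description with earlier results of these data known. Chromatin immunoprecipitation followed by sequencing (ChIP-seq) used sonicated chromatin of whole prepupae, males and females pooled, and an anti-GFP antibody. The animals came from a stable transgenic line in which Dachshund (gene dac) carries eGFP at its C-terminus. The series is 1 group of 2 biological replicates, numbered 1 and 3 in the labels, and all animals carry the tagged transgene. No untagged or mock sample was analysed here, so sites of the tagged protein and non-specific recovery cannot be told apart. The animals were whole, so strong binding in few cells and weak binding in many cells cannot be told apart either. The labels also give the age as 48 days, which disagrees with the stage and was not used.

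Initiation factors bring the ribosomal subunits, the initiator tRNA and the mRNA together at a start codon, and elongation factors then carry aminoacyl-tRNAs to the ribosome and move it along the message. Most of these genes are active in nearly every cell and have housekeeping promoters, often close to a neighbour transcribed in the opposite direction. Dachshund is a nuclear factor required for eye, leg and mushroom body development. The deposited data are peak lists on the dm6 build. Each peak has a signal whose scale the authors did not state, so lists were compared by rank, with rank 1 the highest signal. The list that passed the irreproducible discovery rate (IDR) procedure holds 4137 peaks. They are the same 4137 positions as the highest-signal peaks of the relaxed list made from both replicates pooled. A peak was given to the gene with the protein-coding transcription start site (TSS) nearest to its summit, and a gene tied for the nearest TSS was counted too.

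The sequences under 6 of the peaks given to factor genes are shown because they carry the positions that the results turn on. They were read from the RefSeq Release 6 assembly, which is dm6, 5′ to 3′ on the strand of the gene. Capitals mark a match to TATCGATA, the palindromic site of the DNA replication-related element factor DREF, or to CTTTCC, a core close to the TCT initiator of ribosomal protein genes. The eEF1gamma promoter peak is shown whole (chr3R:29220099-29220225, plus strand), and the TSS is its base 74. The distal peak given to eEF1gamma is shown for 60 bases either side of its summit (chr3R:29214395-29214515, plus strand). The eIF3h peak is shown whole (chr2L:5052345-5052562, minus strand). The others are 60 bases either side of the summit, for eIF5B (chr3L:3460674-3460794, minus strand), eIF4H1 (chrX:16448932-16449052, plus strand) and eEF2 (chr2L:21682044-21682164, minus strand), where the eEF2 TSS is base 49.
eEF1gamma promoter: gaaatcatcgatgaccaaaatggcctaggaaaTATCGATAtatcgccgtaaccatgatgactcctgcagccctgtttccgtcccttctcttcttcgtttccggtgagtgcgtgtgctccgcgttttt
eEF1gamma distal: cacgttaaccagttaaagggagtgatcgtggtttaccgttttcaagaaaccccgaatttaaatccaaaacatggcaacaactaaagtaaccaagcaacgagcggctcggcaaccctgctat
eIF3h: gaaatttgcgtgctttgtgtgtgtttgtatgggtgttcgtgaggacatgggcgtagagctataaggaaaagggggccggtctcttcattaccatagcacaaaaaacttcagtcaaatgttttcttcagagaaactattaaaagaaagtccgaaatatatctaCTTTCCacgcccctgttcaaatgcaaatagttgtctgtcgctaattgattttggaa
eIF5B: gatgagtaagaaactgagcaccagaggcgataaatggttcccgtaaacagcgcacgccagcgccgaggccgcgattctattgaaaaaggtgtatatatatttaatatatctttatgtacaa
eIF4H1: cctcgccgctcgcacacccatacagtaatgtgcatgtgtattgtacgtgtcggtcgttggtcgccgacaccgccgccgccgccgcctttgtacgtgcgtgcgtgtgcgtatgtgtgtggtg
eEF2: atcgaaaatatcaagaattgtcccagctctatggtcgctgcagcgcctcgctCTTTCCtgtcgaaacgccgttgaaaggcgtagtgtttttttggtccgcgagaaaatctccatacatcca

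The eEF1gamma promoter peak holds TATCGATA 41 bases before the TSS, and the eEF2 window holds CTTTCC starting 4 bases after the TSS. In the eIF3h peak CTTTCC starts 380 bases downstream of the TSS nearest to the summit. The distal eEF1gamma, eIF5B and eIF4H1 windows hold none of the 7 motif words searched (listed with the promoters further on). Each of these windows is a cut of a longer peak. The promoter windows searched further on hold GGTCACAC for eIF5B and TATAAA for eIF4H1.

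Of the 52 factor genes, 9 had a peak of the IDR list, or 17.3% (95% Wilson interval 9.38 to 29.7), and over all protein-coding genes the share was 17.6%. The genes as a group were thus reached by IDR peaks about as often as any gene. With the summit required to lie within 500 bp of the TSS, 8 factor genes had a peak, or 15.4% (8.01 to 27.5), and 9.57% of all genes did. The interval of the factor genes includes that background, and the difference was not tested. The genes with a promoter peak were eEF1alpha1, eEF1gamma, eEF2, eEF5, eIF3h, eIF4H1, eIF5B and eIF6, and eIF4G2 had a peak further inside the gene. Intervals cover only the number of genes counted, and how deeply the replicates were sequenced is unknown.

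A larger share of the elongation factor genes than of the initiation factor genes had such peaks. IDR peaks lay at 4 of 8 elongation factor genes (50%), each of which had a peak within 500 bp of a TSS. They lay at 5 of 44 initiation factor genes (11.4%), of which 4 had one within 500 bp (9.09%). Over all genes the shares were 17.6% at any distance and 9.57% within 500 bp. Among initiation factors, 2 of the 3 genes of the eIF5 and eIF6 group had a peak, 2 of the 13 genes of the eIF4 group, which binds the cap and unwinds the leader of the mRNA, and 1 of the 16 genes of eIF3, the scaffold complex on the small subunit. None lay at the 2 genes of eIF1 and eIF1A, which act in start codon selection, or at the 5 genes of eIF2B, which reloads eIF2 with GTP. The 5 genes grouped as eIF2 by their symbol had none either. They are eIF2alpha, eIF2beta and eIF2gamma, of the complex that delivers the initiator tRNA, and also eIF2A and eIF2D. The share of the elongation factors rests in part on replicate 3. Within 500 bp of a TSS, the 4137 highest peaks of replicate 1 reached 2 of the 8 elongation factor genes (25%) and 4 of the 44 initiation factor genes (9.09%), against 8.43% of all genes. Those of replicate 3 reached 4 (50%) and 7 (15.9%), with 3 of the 16 eIF3 genes among them, against 10.8% of all genes. The groups are small, and no difference between them was tested.

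**Figure D1:**
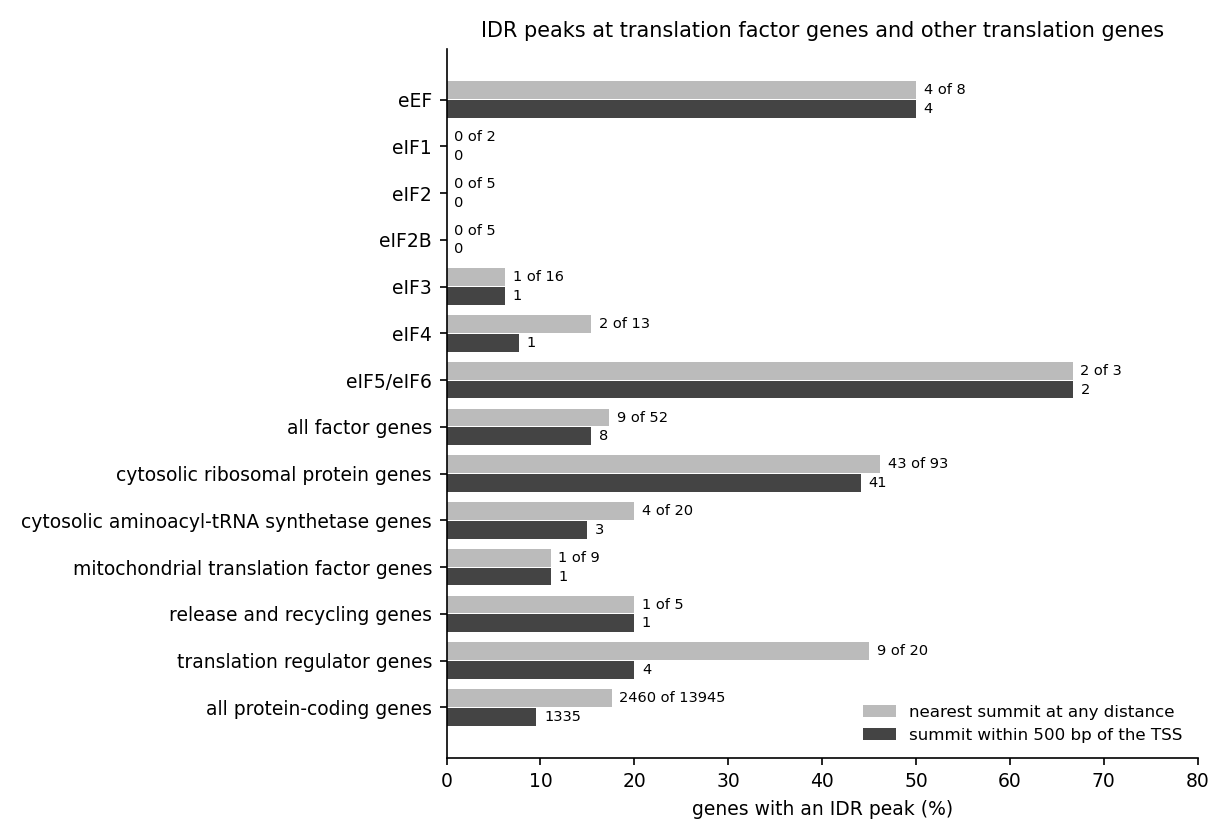
Share of genes with an IDR peak (horizontal axis, percent) for each role group of the factor genes, for all 52 of them, for 5 lists of other translation genes and for all 13945 protein-coding genes; grey bars count summits at any distance and dark bars summits within 500 bp of the TSS, with the gene counts beside them. The elongation factors stand at 4 of 8 genes and the cytosolic ribosomal protein genes at 43 of 93, and 3 of the initiation factor groups have no IDR peak.

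Among the elongation factors, eEF1gamma (FBgn0029176, chr3R:29220172-29222109, plus strand), a subunit of the complex that exchanges GDP for GTP on eEF1A, carried the highest signal. Its promoter peak, whose sequence is shown above, had a signal of 284 in the IDR list (rank 897), 101 in replicate 1 (rank 1105) and 188 in replicate 3 (rank 798). Its summit lay 15 bp upstream of the TSS in the IDR list and on the TSS itself in each replicate. At 127 bp it was also the narrowest of the members' IDR peaks, where the median over the IDR list was 410 bp.

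The second eEF1gamma peak was far stronger, with a signal of 1005 in the IDR list (rank 37), 373 in replicate 1 (rank 40) and 638 in replicate 3 (rank 31). It lay at chr3R:29214262-29214602, in intergenic sequence, with its summit 5717 bp upstream of the eEF1gamma TSS. No other protein-coding gene starts nearer, since the next, Cisd2, starts 8973 bp away. A non-coding gene does: lncRNA:CR31044 starts 107 bp downstream of the summit, on the same strand, and the hairpin of mir-279, which is known for repressing the formation of carbon dioxide-sensing neurons, starts 1130 bp downstream within it. With non-coding RNA genes included in the assignment this peak went to lncRNA:CR31044, and eEF1gamma kept its promoter peak.

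Peaks at 3 further elongation factor genes were weaker. The gene eEF1alpha1 (FBgn0284245, chr2R:11891135-11895762), 1 of the 2 genes of the factor that delivers aminoacyl-tRNA, had an IDR signal of 148 (rank 2626), with its summit 77 bp upstream of the nearest of its 4 TSSs and in an intron of the longer transcripts. The overlapping peak had a signal of 30.2 in replicate 1 (rank 9934, −log10 q 0.555) and 122 in replicate 3 (rank 1755), so it was far lower in the ranking of replicate 1. A different peak of this gene, at −441 bp from a TSS, ranked 4543 in replicate 1.

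The translocation factor gene eEF2 (FBgn0000559, chr2L:21677913-21682164, minus strand) had the lowest IDR signal among the factor genes, 118 (rank 3717), at chr2L:21681899-21682308 with its summit 12 bp downstream of the nearer of its 2 TSSs and 60 bp downstream of the other. Replicate 3 had an overlapping peak of signal 106 (rank 2187), and replicate 1 had none among its 30000 relaxed peaks. At an overlap of at least 1 bp, the eEF2 peak was the exception among the members' 10 IDR peaks. Of these, 9 overlapped a peak of replicate 1 and 10 a peak of replicate 3. Over the whole IDR list, 97.2% of peaks overlapped one of replicate 1 and 99.4% one of replicate 3. A stricter rule required the overlap to be at least as long as the rest of the IDR peak. It was met by 9 members' peaks (90%) in replicate 1 and by 7 (70%) in replicate 3. Over the whole IDR list it was met by 95.2% and 93.2%, and the difference was not tested.

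The gene eEF5 (FBgn0285952, chr2R:24057798-24059483), for the hypusine-carrying factor long known as eIF5A, had an IDR signal of 140 (rank 2865), 57.0 in replicate 1 (rank 3002) and 93.6 in replicate 3 (rank 2637). Its summit lay 23 bp upstream of the TSS, with ppk29 starting 638 bp away on the other strand. The remaining elongation factor genes, eEF1alpha2, eEF1beta, eEF1delta and eEFSec, had no IDR peak.

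Among the initiation factors, eIF6 (FBgn0034915, chr2R:23849246-23850301), which holds the large ribosomal subunit apart from the small one and acts in ribosome maturation, had the highest signal of all the factor genes. The peak at chr2R:23850252-23850555 had a signal of 1106 in the IDR list (rank 24), 385 in replicate 1 (rank 36) and 717 in replicate 3 (rank 23). Its summit was 98 bp upstream of the eIF6 TSS and 69 bp from the start of asRNA:CR45928 on the opposite strand, inside the antisense gene. The gene eIF6 lies within the span of ytr, whose nearest TSS was 674 bp away, and gbb, which encodes a bone morphogenetic protein ligand, starts 1163 bp away. When non-coding RNA genes entered the assignment, the peak went to the antisense gene and eIF6 had no peak.

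**Figure D2:**
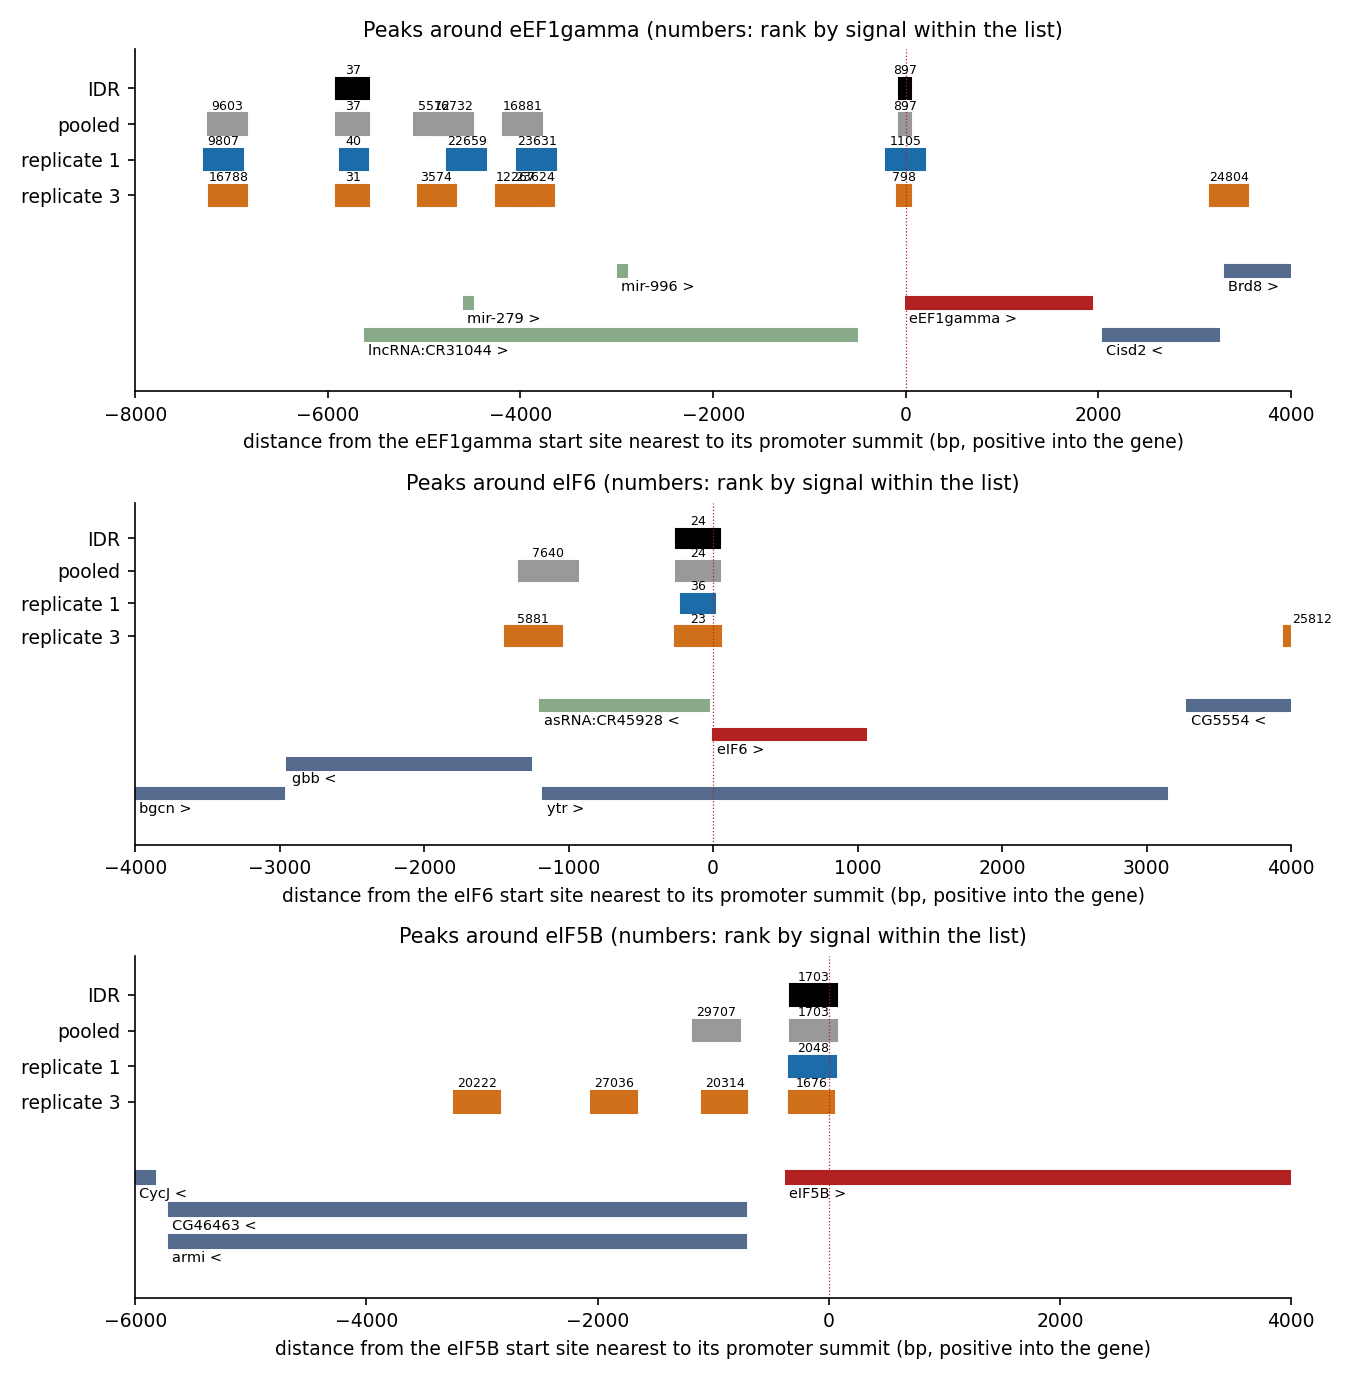
Peaks of the 4 lists around eEF1gamma, eIF6 and eIF5B, drawn by distance from the TSS nearest to each promoter summit (horizontal axis, bp, positive into the gene); boxes are peaks with their rank in the list above them, red bars the factor gene, blue bars other protein-coding genes, green bars non-coding genes, and arrowheads beside the names the direction of transcription on the page. The distal eEF1gamma peak ranks 37 in the IDR list and lies beside the start of lncRNA:CR31044, and the eIF6 peak ranks between 23 and 36 in every list.

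The eIF3h gene (FBgn0022023, chr2L:5051193-5053094, minus strand), for a regulatory subunit of eIF3, had a signal of 300.2 in the IDR list (rank 813), 103 in replicate 1 (rank 1069) and 188 in replicate 3 (rank 797). The summit lay 294 bp downstream of the nearer of its 2 TSSs, in an intron, and 357 bp from the TSS of senju, which starts 63 bp from eIF3h in the opposite direction. It was the only one of the 16 eIF3 genes with an IDR peak.

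The subunit-joining GTPase gene eIF5B (FBgn0026259, chr3L:3428658-3460977, minus strand) had a signal of 195.6 in the IDR list (rank 1703), 70.7 in replicate 1 (rank 2048) and 126 in replicate 3 (rank 1676). The peak covered chr3L:3460529-3460938, and the summit lay 131 bp upstream of the downstream TSS, inside the untranslated first exon of the transcript that starts further upstream. The piRNA pathway gene armi starts 583 bp away on the other strand. The relaxed lists held 14 peaks of eIF5B in the pooled data, 10 in replicate 1 and 13 in replicate 3, the most of any factor gene, and its span of 32320 bp is the second longest of the family after eIF4EHP.

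The eIF4H1 gene (FBgn0262734, chrX:16448665-16454972), for a cofactor of the helicase eIF4A, had a signal of 190.2 in the IDR list (rank 1775), 70.4 in replicate 1 (rank 2071) and 126 in replicate 3 (rank 1668). The summit lay 160 bp upstream of the second of its 2 TSSs and in the intron of the longer transcript. The gene of eIF2alpha, a subunit of the tRNA-delivering factor, starts 1999 bp from the same summit and had no IDR peak of its own.

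The eIF4G2 gene (FBgn0260634, chr3R:23808285-23819237, minus strand), for an eIF4G paralogue known from the male germ line, had a signal of 197 in the IDR list (rank 1689), 75.02 in replicate 1 (rank 1845) and 118 in replicate 3 (rank 1862). This peak, at chr3R:23817554-23817963, was the only IDR peak of the factor genes inside a gene and beyond 500 bp, with its summit in an intron 1060 bp downstream of the nearer TSS. CG33111 shares that TSS and was tied with eIF4G2 for the peak, and CG34355 also spans the site.

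**Figure D3:**
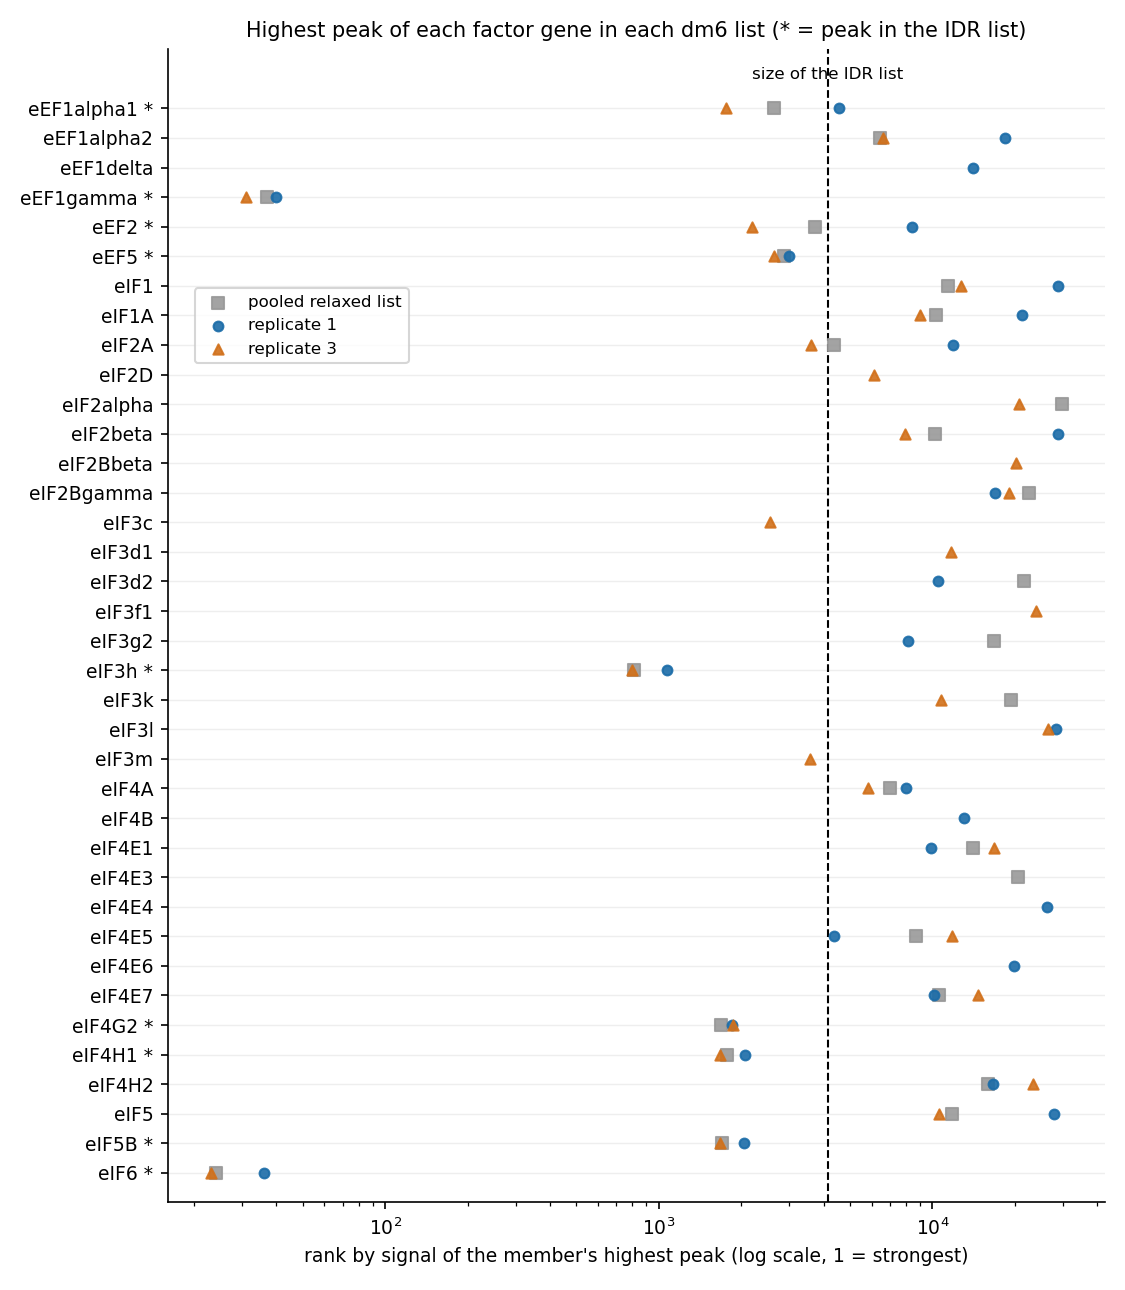
Rank by signal (horizontal axis, log scale, 1 the strongest) of the highest peak of each factor gene in the pooled relaxed list (grey squares), replicate 1 (blue circles) and replicate 3 (orange triangles), for the 37 factor genes with a peak in at least 1 of these lists; asterisks mark genes with an IDR peak, and the dashed line is at 4137, the size of the IDR list. The symbols of eIF6 and eEF1gamma sit between ranks 23 and 40, those of eEF1gamma standing for its distal peak. The genes eIF2A, eIF3c and eIF3m have a symbol left of the line in replicate 3 alone.

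The replicates differed in how many factor genes they reached. Among the 4137 highest-signal peaks of replicate 1 alone, 7 factor genes had a peak (13.5%, 6.68 to 25.3), against 16.8% of all genes, and 6 had one within 500 bp (11.5%), against 8.43%. Among the same number from replicate 3, 12 factor genes had one (23.1%, 13.7 to 36.1), against 18.3% of all genes, and 11 within 500 bp (21.2%), against 10.8%. The share within 500 bp thus lay above that of all genes in each replicate, and the share at any distance lay below it in replicate 1 and above it in replicate 3.

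The 5 genes reached by replicate 3 and not by replicate 1 at this depth of the lists were eEF1alpha1, eEF2, eIF2A, eIF3c and eIF3m. The share of all genes in the same class was not counted, so whether 5 is many or few cannot be said. Replicate 3 had a peak of signal 95.8 at the start of eIF3c (rank 2550, summit 20 bp downstream of a TSS) and one of 77.4 at eIF3m (rank 3579, 79 bp downstream), both subunits of eIF3. Neither overlapped any peak of replicate 1 or of the pooled relaxed list. These 2 genes were singled out after their values had been seen. They account for 2 of the 14 member peaks in this part of replicate 3, and over all 4137 peaks there 3.58% overlapped no pooled peak and 8.58% no peak of replicate 1. For replicate 1 the shares were 1.52% with no pooled peak and 3.09% with no peak of replicate 3.

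In the relaxed lists, which extend to weak peaks, the factor genes were reached at any distance about as often as other genes. Within 500 bp of the TSS their share was higher in each list. The pooled list had a peak for 26 factor genes (50%, 36.9 to 63.1) and for 47.2% of all genes. Within 500 bp of the TSS it had one for 20 (38.5%, 26.5 to 52.0) and for 30.7% of all genes. The relaxed list of replicate 1 reached 28 factor genes (53.8%), against 51.2% of all genes, and that of replicate 3 reached 30 (57.7%), against 49.9%. Within 500 bp replicate 1 reached 18 (34.6%), against 28.2% of all genes, and replicate 3 reached 24 (46.2%), against 36.1%. None of these differences was tested. Many of these peaks are weak: at q of 0.05 or less stood 30.4% of the members' pooled peaks and 30.6% of all pooled peaks, 19% and 17.6% in replicate 1, and 57.3% and 46.1% in replicate 3.

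**Figure D4:**
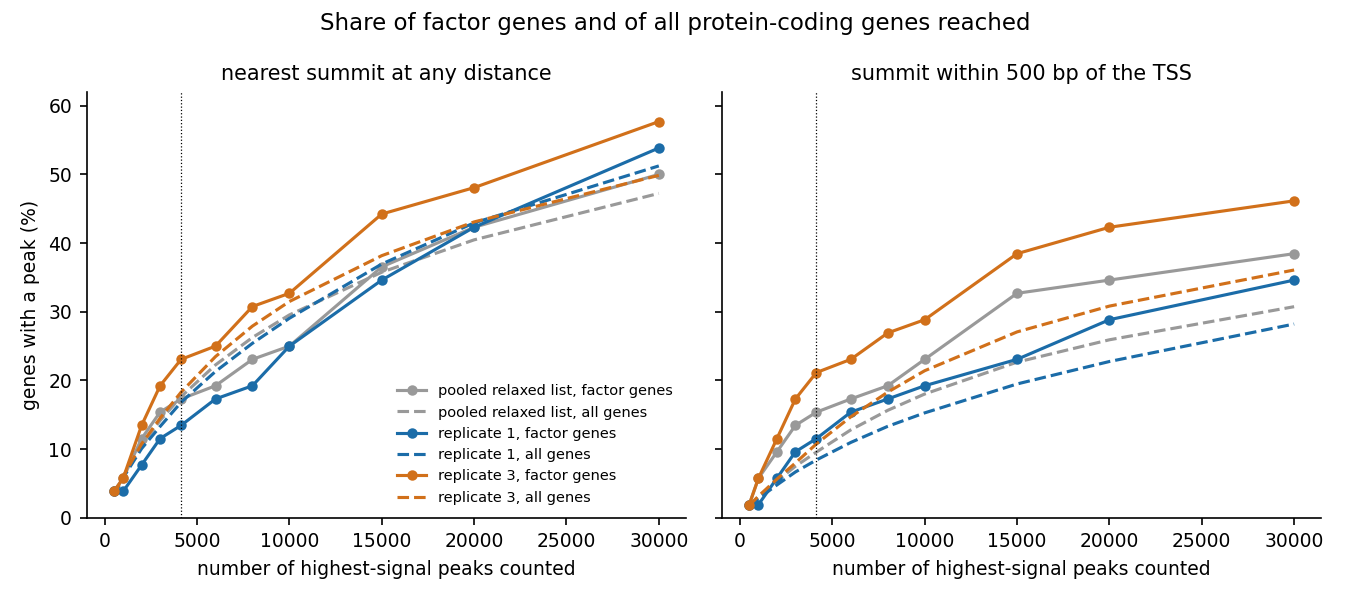
Share of genes with a peak (vertical axis, percent) against the number of highest-signal peaks counted in each relaxed list, for the 52 factor genes (solid lines with points) and for all protein-coding genes (dashed lines), at any distance on the left and within 500 bp of the TSS on the right; the dotted line is at 4137 peaks. Within 500 bp the factor genes end at 38.5% in the pooled list, with all genes at 30.7%, and at any distance they end at 50% and all genes at 47.2%.

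Beyond the IDR list, the factor gene highest in the pooled relaxed list was eIF2A, which encodes an initiator tRNA-binding protein separate from the eIF2 complex. Its promoter peak had a pooled signal of 105.8 (rank 4353), 27.8 in replicate 1 (rank 11920) and 77.2 in replicate 3 (rank 3589), so it fell just outside the IDR list, whose lowest signal was 109.8. The next were eEF1alpha2 at rank 6452, with its summit 1786 bp downstream of the nearest of its TSSs, and the helicase gene eIF4A at rank 6981, 97 bp downstream of one. The cap-binding paralogue eIF4E5 followed at rank 8673, with its summit 4961 bp upstream, then eIF2beta at rank 10243, 274 bp upstream, and eIF1A at rank 10316, 658 bp downstream of a TSS.

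Both replicates had a relaxed peak at 22 factor genes (42.3%), against 37.4% of all genes. Replicate 1 but not 3 had one at 6 (11.5%), against 13.9%, and replicate 3 but not 1 at 8 (15.4%), against 12.5%. These shares were close to the background. The 6 genes of replicate 1 were eEF1delta, eIF3d2, eIF3g2, eIF4B, eIF4E4 and eIF4E6. The 8 genes of replicate 3 were eIF2Bbeta, eIF2D, eIF2alpha, eIF3c, eIF3d1, eIF3f1, eIF3k and eIF3m, and the summit of each lay within 179 bp of its TSS in that list except that of eIF3f1, at 1634 bp. The gene of eIF4E3 had a peak in the pooled list alone. The genes with a peak in both that are not yet named were eIF1, eIF2Bgamma, eIF3l, eIF4E1, eIF4E7, eIF4H2 and eIF5.

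No peak of any list was assigned to 15 factor genes (28.8%, 18.3 to 42.3), against 35.3% of all genes. They comprise 7 of the 16 eIF3 genes (eIF3a, eIF3b, eIF3e, eIF3f2, eIF3g1, eIF3i and eIF3j), 3 of the 5 eIF2B genes (eIF2Balpha, eIF2Bdelta and eIF2Bepsilon) and eIF2gamma. They also comprise 2 of the 13 eIF4 genes (eIF4EHP and the main scaffold gene eIF4G1) and 2 of the 8 elongation factor genes (eEF1beta and eEFSec). Several lie close to a summit that a neighbour took. Replicate 3 had a summit 62 bp from the eIF3a TSS (rank 4346), 76 bp from that of eIF2Bepsilon (rank 8362) and 57 bp from that of eIF2Bdelta (rank 10786). For 18 of the 52 factor genes (34.6%, 23.2 to 48.2) no summit of the 3 relaxed lists came within 500 bp of a TSS. Summits were counted here whichever gene they were assigned to. The share over all genes was 48.6%, just above the end of that interval, and the difference was not tested.

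Within 1000 bp of a factor gene, 3 IDR peaks had their summit outside the gene and were given to a neighbour. The strongest peak of the whole IDR list (signal 2090, rank 1 in both replicates) lay 672 bp upstream of eIF2Bbeta and 47 bp from the TSS of Ugalt, a UDP-galactose transporter gene that starts 719 bp from eIF2Bbeta in the opposite direction. A peak of signal 570 (rank 183, rank 280 in replicate 1 and 155 in replicate 3) lay 291 bp upstream of eIF4EHP, a cap-binding repressor gene, and 85 bp from CG18428. A peak of signal 283 (rank 908, rank 737 in replicate 1 and 915 in replicate 3) lay 342 bp upstream of eIF1 and 39 bp from RpL28, a ribosomal protein gene. Counting every summit within 500 bp of any TSS, nearest or not, added eIF1 and eIF4EHP, lost eIF4G2 and gave 10 factor genes (19.2%, 10.8 to 31.9), against 12.3% of all genes. Deep inside long factor genes, 2 further IDR peaks in eIF5B were given to sty and 1 in eIF4EHP to Syx1A.

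Such paired starts were common in the family. A neighbour starting in the opposite direction within 1000 bp was found for 26 of the 52 factor genes (50%), against 36.2% of all genes. IDR summits within 500 bp lay at 5 of these 26 factor genes (19.2%) and at 3 of the other 26 (11.5%). Over all genes the shares were 12.4% with such a neighbour and 8% without. In both sets the share was higher at paired starts, and the difference was not tested. Territory, the gene body plus the stretch on either side up to the midpoint with the next start, had a median of 6424 bp for factor genes (quartiles 4027 and 11676 bp) and 7078 bp for all genes (quartiles 3892 and 14975 bp). Among genes whose territory lay between the quartiles of the factor genes, 5 of 26 factor genes had an IDR peak at any distance (19.2%), against 709 of 5750 genes in all (12.3%). That difference was not tested.

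The summits of the factor genes' promoter peaks sat close to the TSS. Of the 8 IDR summits within 500 bp, 6 lay upstream (75%), against 80.2% of 1455 over the whole list. The median position was −50 bp from the TSS for factor genes and −125 bp for all. The median signal was 196.3 over the 10 members' peaks and 172.4 over all IDR peaks, and 192.9 and 186.3 within 500 bp. Apart from the 2 peaks of eIF6 and distal eEF1gamma, the members' signals ran from 118 to 300.2.

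**Figure D5:**
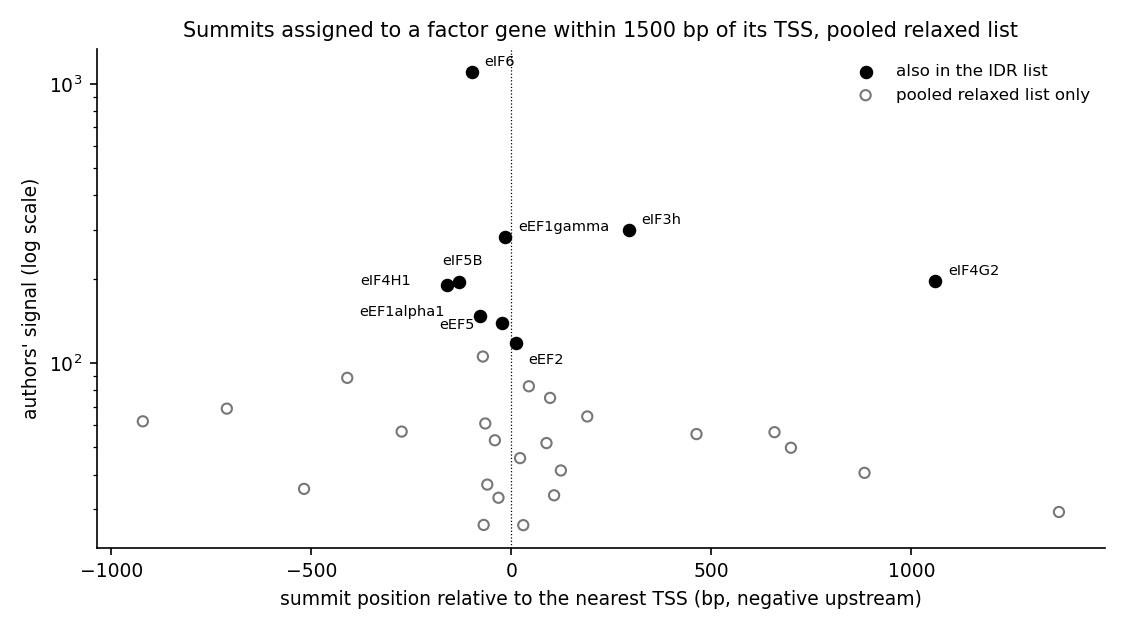
Summits of the pooled relaxed list that were assigned to a factor gene and lie within 1500 bp of its TSS, by position relative to that TSS (horizontal axis, bp, negative upstream) and the authors' signal (vertical axis, log scale, no stated unit); filled points are also in the IDR list and are named, open points are in the pooled relaxed list only. The filled points lie between 160 bp upstream and 294 bp downstream except eIF4G2 at 1060 bp, and eIF6 is the only assigned summit above 1000 in this window; peaks near a factor gene that a neighbour took are not drawn.

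Sequence of the promoters was searched from 250 bases before to 50 bases after 1 TSS per gene, the one with most transcripts. TATCGATA was found at 14 of the 52 factor genes (26.9%, 16.8 to 40.3), against 9.23% of all protein-coding promoters of the same length and 30.1% of 93 cytosolic ribosomal protein genes. Genes with and without a promoter peak held it at like shares, 2 of 8 (eEF1gamma and eIF6) and 12 of the other 44 (27.3%). Around the summits themselves (100 bases either side) it was found at 2 of the 10 members' peaks and at 57 of all 4137 IDR peaks (1.38%). These sets differ in position: 8 of the 10 members' peaks lay within 500 bp of a TSS, and 1455 of all IDR peaks did. The share among promoter IDR peaks alone was not counted. These matches describe letters only, and no difference was tested.

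In the same window the other words were closer to the background than TATCGATA was, or less common than the background. GGTCACAC, the core of the motif of M1BP, was found at 7 factor genes (13.5%), against 7.79% of all. The E-box CAGCTG was at 4 (7.69%), against 17.8%, and GAGAGAG, the word bound by GAGA factor, at 1 (1.92%), against 6.16%. TATAAA, read on the strand of the gene, was at 16 (30.8%), against 32.1%. CTTTTC and CTTTCC, the cores close to the TCT initiator, also read on the strand of the gene, were at 7 (13.5%) and 6 (11.5%), against 14.4% and 6.87%. Cytosolic ribosomal protein genes held them at 36.6% and 21.5%. The TCT cores stood further above the background within 100 bases either side of the TSS. There CTTTTC was at 9 factor genes (17.3%), against 9.78% of all, and CTTTCC at 5 (9.62%), against 4.56%. At least 1 of these cores was at 14 (26.9%, 16.8 to 40.3), against 13.9% of all and 54.8% of cytosolic ribosomal protein genes. These differences were not tested. All words but those 3 were searched on both strands, and none contains another. Around the 10 summits neither GAGAGAG nor CAGCTG was found, against 5.51% and 7.83% of all IDR summits. At shares this low, 10 summits are too few for an absence to be read as a difference.

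Other genes of the translation apparatus were counted in the same way. Of 93 cytosolic ribosomal protein genes, paralogues included, 43 had an IDR peak (46.2%), 41 of them within 500 bp (44.1%), and the highest signals were those of RpL7 (454), RpS27 (438), RpL34b (353) and RpL37A (318), the last with its summit 9644 bp from the TSS. Each of these leading signals was below those of eIF6 and the distal eEF1gamma peak. Of 20 aminoacyl-tRNA synthetase genes of the cytosol, which charge tRNAs, 4 had a peak (20%): ThrRS (320), GluProRS (191), HisRS (179) and AsnRS (142). The mitochondrial factors had 1 of 9 (11.1%), mIF2 (130.4), and the release and recycling factors 1 of 5 (20%), eRF3 (148). All protein-coding genes stood at 17.6%, and at 9.57% within 500 bp.

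Genes that regulate translation had a peak in 9 of 20 cases (45%), 4 of them within 500 bp (20%), with 17.6% and 9.57% over all genes. The highest were larp (signal 1349, rank 12), for an RNA-binding partner of the poly(A)-binding protein, and Lk6 (1208, rank 18), for the kinase of eIF4E. REPTOR, a transcription factor downstream of the TOR kinase, had 529, and pAbp, the gene of the poly(A)-binding protein, 384. The peaks of larp and Lk6 were thus of the same order of signal as the eIF6 peak and the distal eEF1gamma peak. None of these lists was tested against the factor genes.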

How the data were processed

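ChIP-seq peak lists of 2 biological replicates were used. The authors deposited, per the labels, relaxed lists of 30000 peaks for each replicate and for the pool, given as the input to IDR, and 1 list past IDR. Column 7 is the authors' signal, deposited without a stated scale, and column 9 their −log10 q-value. How reads were aligned, which program called the peaks and what cut-off IDR used is not given in the sources used here. Lists on dm3, and the control library named in the labels, were not analysed here.

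Summits were assigned to the nearest protein-coding TSS of Ensembl release 115 with Python 3.11.15, pandas 2.3.3 and numpy 2.4.6, and Wilson intervals came from scipy 1.17.1. Assignment and motif search were tested on simulated data. The factor genes, the pathway lists and the motifs were chosen with earlier results of these data known. Every factor gene with an IDR peak was named, then the 6 highest of the pooled list, and the 4 highest genes of each pathway list. The listed gene Tor was matched to its current symbol, mTor. With 1 group and no second condition no test was made. Alternatives changed the peak list, replicate, assignment, window and overlap, and the treatment of ties and a window of 10 bases around the TSS were added after the data had been seen.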

Additional observations from a re-analysis of the deposited data

How the results depend on the processing

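No paired analysis was possible because there is 1 group. The count of 9 factor genes with an IDR peak became 26 with every peak of the pooled relaxed list (all genes 47.2%) and 21 when a summit inside the gene or up to 5000 bp from it sufficed (all genes 37.6%). Within 500 bp the count of 8 became 5 with only IDR peaks above the median signal (all genes 5.48%). Taking 1 replicate alone gave 7 to 12 genes at any distance and 6 to 11 within 500 bp, with the lower count of each pair without replicate 3. Of the 21 alternatives to the counts, median signal and overlaps, 18 left the value within 1.5 times of it. Among them the assignment that includes non-coding RNA genes, the use of the 5′-most TSS and, chosen after seeing the data, the breaking of ties each gave 8 genes at any distance. Within 10 bases of the TSS, a window also chosen after seeing the data, CTTTTC and CTTTCC were each found at 1 factor gene (1.92%). Over all genes the shares were 0.803% and 0.43%, and over cytosolic ribosomal protein genes 11.8% and 9.68%. These shares were not tested. Depth is unknown, so a factor gene without a peak is one at which none was listed.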
